A study of Mus musculus with 4 samples.

Results

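The genes described here encode the voltage-gated sodium channels of neurons and the sodium leak channel NALCN: the pore-forming alpha subunit genes Scn1a, Scn2a, Scn3a, Scn8a and Scn9a, the auxiliary beta subunit genes Scn2b, Scn3b and Scn4b, and Nalcn. They are 9 of the 55471 genes in the count table and were found there by gene name. Each of the 4 libraries was made from sorted retinal amacrine cells, interneurons that are mostly inhibitory and act on bipolar, ganglion and other amacrine cells, of C57BL6 mice at postnatal days 6 to 7. Every mouse carried Gbx2-CreERT2-IRES-EGFP, in which Gbx2 drives an inducible Cre recombinase and the green protein EGFP, together with Ai9, which makes the red protein tdTomato where Cre has acted and in the descendants of those cells. Sorted tdTomato cells were either GFP-negative (cell type 1 in the series; replicates 2 and 6) or GFP-positive (cell type 2; replicates 2 and 3), so the GFP-negative cells share the Cre history but lack visible Gbx2 reporter at sorting. The series text gives 750 to 2500 sorted cells per RNA sample and 1 sample of each fraction from each animal. It also states 4 biological replicates and 3 different litters. Litter was not taken into account in the fits. Whether the libraries numbered 2 share an animal is not stated, and p-values measure only the spread between these libraries.

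Voltage-gated sodium channels open when the membrane depolarises and carry the rapid inward current of the action potential, after which an intracellular gate closes the pore. Beta subunits are small proteins with an immunoglobulin domain that modify gating and take part in cell adhesion. NALCN resembles the alpha subunits in its layout but passes a steady sodium leak that helps to set the resting potential and excitability, and it works in a complex with UNC79, UNC80 and FAM155A. Amacrine cells differ by type in whether and where they fire sodium spikes.

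The alpha subunit genes are close paralogs, which bears on their counts, because the treatment of reads matching several genes was not given in the sources used here. Of the 50-base words in a gene's annotated transcripts, 4.03% for Scn1a, 5.76% for Scn2a, 6.49% for Scn3a and 4.16% for Scn9a also occurred in transcripts of another gene, chiefly each other. The share was 0.037% for Scn8a and 0.297% for Nalcn, and no word of Scn3b or Scn4b was shared. Levels of the 4 genes clustered on chromosome 2 therefore carry this uncertainty and those of Scn3b and Nalcn hardly do.

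Total gene counts were 41040667 to 44689917 per library, and 17940 genes were tested with edgeR's quasi-likelihood test. Gbx2 followed the sort, with a log2 fold change of 3.71 ± 0.44 (standard error, edgeR adjusted p = 0.0118). All 12 pan-amacrine markers of a fixed list were detected in the libraries. RNA of other retinal cells was present too: 16 rod markers summed to 8984 CPM (counts scaled to effective library size) in GFP-negative replicate 2, 2202 in GFP-negative replicate 6, 10270 in GFP-positive replicate 2 and 17180 in GFP-positive replicate 3. None of the 16 was called, and all 16 had positive log2 fold changes. The 11 ganglion cell markers, some of which amacrine cells also express, summed to 338.4, 382.0, 248.8 and 125.9 CPM in the same order of libraries. Much of that sum was Nefl (191.0, 239.6, 94.8 and 32.5 CPM). The markers did not move together, with 7 negative and 4 positive log2 fold changes and none called. Rbpms went the other way from the sum (10.1, 7.35, 28.9 and 26.0 CPM). In bulk samples such as these, fewer cells of a type and less RNA per cell cannot be told apart.

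Nalcn was the only one of the 8 tested genes to pass the edgeR test, and it was lower in GFP-positive cells. That call held under some statistical settings and not others. Alpha subunit RNA was dominated by Scn3a, the channel gene typical of immature neurons, in both fractions. Among beta subunits, Scn3b was far above Scn2b, and Scn4b had no count in any library. Of the 9 genes, 8 had counts and were tested; 1 was called lower and 0 higher, where 0.87% of all genes tested were called lower, 0.234% higher and 1.1% either way. Unadjusted p was under 0.05 for 2 of the 8 (12.6% of all genes). DESeq2 also called 1 of the 8, where it called 4.6% of the 17244 genes to which it gave an adjusted p, and limma-voom called 0 (0.513% of all genes tested). Their median log2 fold change was -0.56, with 6 negative and 2 positive values, and the median over all genes tested was 0.039.

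**Figure D1:**
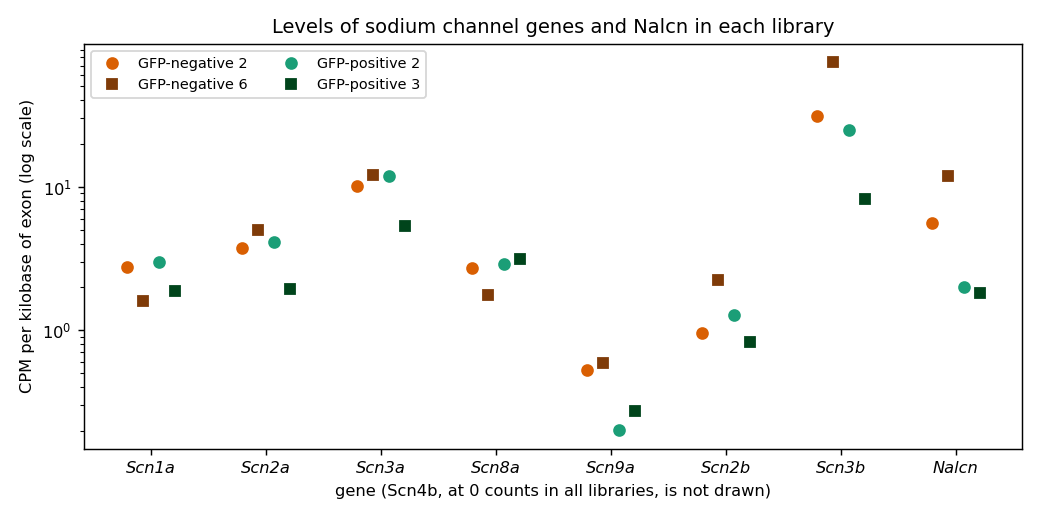
Levels of 8 of the genes in each library, in CPM per kilobase of exon on a log axis, with circles and squares for the 2 libraries of each fraction. Scn3b stands highest and Scn9a lowest in every library, and the Nalcn points of the 2 fractions are apart, at 5.56 and 11.9 against 2.02 and 1.81.

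Nalcn (ENSMUSG00000000197, chromosome 14, 123276634 to 123627144, minus strand, GRCm38) had 3424 and 6254 counts in GFP-negative replicates 2 and 6, and 1357 and 1265 counts in GFP-positive replicates 2 and 3. As CPM these were 81.9 and 174.7, against 29.7 and 26.6. Both GFP-negative libraries were above both GFP-positive libraries, and the GFP-negative libraries differed 2.13-fold from each other while the GFP-positive libraries differed 1.12-fold. The GFP-negative mean was 128.3 ± 65.6 CPM and the GFP-positive mean 28.1 ± 2.18 CPM (SD, n = 2 libraries per fraction here and throughout). The fitted level was 4.56-fold lower in GFP-positive cells, with a log2 fold change of -2.19 ± 0.41 (edgeR adjusted p = 0.0488). That p lies just under the threshold of 0.05, and Nalcn ranked 190 by p among the 17940 genes. The call was lost without GFP-negative replicate 6 (edgeR adjusted p = 0.364), without GFP-positive replicate 3 (0.312) and without GFP-positive replicate 2 (0.136), and with no filter on low counts (0.0967) or limma-voom (0.0898). It also rests on a setting of edgeR that was chosen after both outcomes had been seen: the default legacy fit, run first, gave an edgeR adjusted p of 0.126 and no call. The log2 fold change lay between -2.69 and -1.54 over all 13 alternatives run. Relative to the summed alpha subunits of the same library, a ratio that no library scaling can alter, Nalcn stood at 0.279 and 0.565 in GFP-negative and at 0.0917 and 0.145 in GFP-positive libraries, counts per kilobase in each case. GFP-negative replicate 6, where Nalcn was highest, also had the lowest rod marker sum (2202 CPM) and the highest pan-amacrine sum. Of the 12 pan-amacrine markers, 5 were called lower in GFP-positive cells by edgeR (0.87% of all genes tested), and 2 of the 12 had positive log2 fold changes. The part of such differences in cell makeup in the Nalcn result was not tested. Without rod, mitochondrial and hemoglobin genes in the table, the log2 fold change was -2.19 (edgeR adjusted p = 0.046). That fit checks scaling and not cell makeup, because the Nalcn counts stay the same.

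The 250 bases upstream of the RefSeq start of Nalcn are shown because it was the gene called (chr14:123627145-123627394, minus strand, GRCm38.p6, from RefSeq, 5′ to 3′ toward the start). Capitals mark CG dinucleotides, the bases that accumulate in CpG island promoters.
Nalcn upstream: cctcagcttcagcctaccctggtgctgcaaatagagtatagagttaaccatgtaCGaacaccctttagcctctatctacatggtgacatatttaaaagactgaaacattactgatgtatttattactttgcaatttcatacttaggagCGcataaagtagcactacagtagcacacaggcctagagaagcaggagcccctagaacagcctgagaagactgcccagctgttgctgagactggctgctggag
This window held 2 CG dinucleotides and 45.2% G and C, where the median over 32851 such windows was 6 CG and 52.4%. It held neither TATAAA (found on either strand in 12.4% of all windows) nor GGGCGG (32.7%). Among the 7 genes with a RefSeq window, Scn8a had one with 30 CG, more than 94.1% of all windows hold, and Scn2b one with 1. Scn4b, with no counts, had 23.

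The partners of NALCN did not pass the test, and their fold changes differed in sign. Unc79 and Unc80 encode the large proteins that hold the complex together. Unc79 stood at 31.6 and 32.6 CPM in the GFP-negative libraries, against 28.9 and 26.6 CPM, a log2 fold change of -0.21 ± 0.33 (edgeR adjusted p = 0.846). Unc80 stood at 37.3 and 32.7 against 38.1 and 91.7 CPM (0.89 ± 0.43, edgeR adjusted p = 0.438), with the high value in GFP-positive replicate 3 alone. Fam155a, which encodes the extracellular subunit, stood at 83.6 and 118.9 against 38.6 and 42.6 CPM (-1.32 ± 0.32, edgeR adjusted p = 0.122). Each of these 3 partner genes lacked overlap between GFP-negative and GFP-positive libraries. Unc79 and Fam155a were lower in both GFP-positive libraries and Unc80 was higher in both, by little in replicate 2. Such a lack of overlap was found for 43.8% of all genes tested. None of the 3 was called by edgeR or limma-voom; 1 had an unadjusted p under 0.05 (12.6% of all genes), and DESeq2 called 1, Fam155a (4.6% of all genes). Per kilobase, Nalcn was 2.51 and 5.20 times the level of Unc79 in GFP-negative libraries and 0.997 and 0.968 times in GFP-positive libraries. Against Unc80 the ratios were 2.15 and 5.24, and 0.764 and 0.284. Against Fam155a they were nearer to each other, at 0.435 and 0.652, and 0.342 and 0.277. These ratios were chosen after the values had been seen. Of 3 receptors known to act on the leak current, some raising and some lowering it, Tacr1, the substance P receptor gene, stood at 15.04 and 12.4 against 4.37 and 0.021 CPM (edgeR adjusted p = 0.297). The lowest of these values was 1 count, and the GFP-positive libraries differed 208-fold from each other. Chrm3, a muscarinic receptor gene, stood at 5.57 and 11.0 against 10.7 and 8.98 CPM (edgeR adjusted p = 0.888), and Casr had no count. Neither of the 2 tested was called by edgeR, DESeq2 or limma-voom, and 1 had an unadjusted p under 0.05 (12.6% of all genes).

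**Figure D2:**
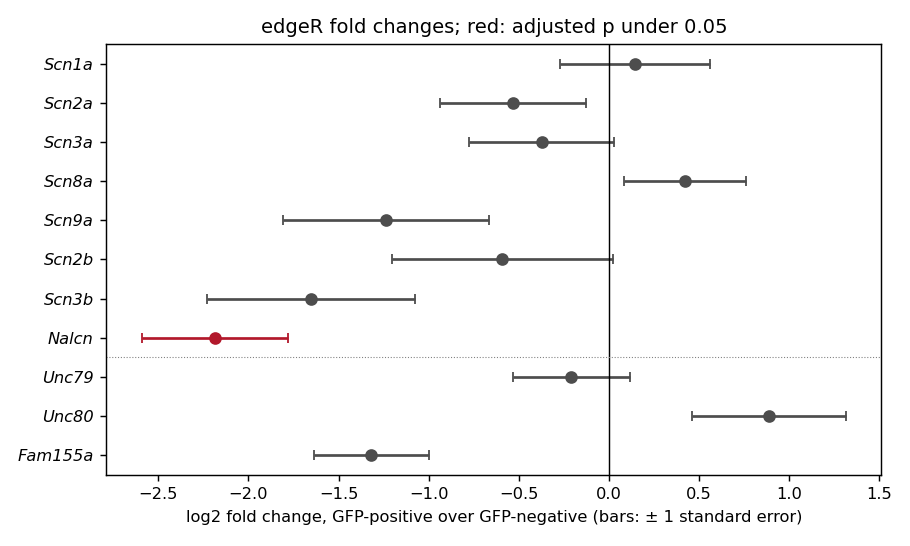
Log2 fold changes, GFP-positive over GFP-negative, for 8 sodium channel genes and Nalcn's 3 partner genes below the dotted line. Bars are 1 standard error, derived from the F statistic of edgeR's test. Nalcn, in red at -2.19, was the gene with an adjusted p under 0.05; Unc80 lay on the other side of 0, at 0.89.

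Scn3a (ENSMUSG00000057182, chromosome 2, 65457118 to 65567627) was the most abundant of the 5 alpha subunit genes in every library. GFP-negative libraries had 126.2 and 150.6 CPM and GFP-positive libraries 147.4 and 66.2 CPM, so the fractions overlapped and GFP-positive replicate 3 was low. The fitted log2 difference was -0.37 ± 0.40 (edgeR adjusted p = 0.763). Scn2a (ENSMUSG00000075318, chromosome 2, 65620771 to 65767447), which serves early axon initial segments, stood at 47.9 and 63.1 against 52.1 and 24.6 CPM (-0.53 ± 0.40, edgeR adjusted p = 0.639). It had the same low library. The ratio of Scn3a to Scn2a per kilobase was 2.695 and 2.44 in GFP-negative and 2.89 and 2.75 in GFP-positive libraries, so the proportion of these chromosome 2 neighbours varied little.

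Scn8a (ENSMUSG00000023033, chromosome 15, 100869858 to 101045938), the channel of mature initial segments and nodes, was the alpha subunit gene with a positive fold change and separate fractions. The GFP-negative libraries had 43.0 and 27.7 CPM, the GFP-positive libraries 45.8 and 49.2 CPM (0.42 ± 0.34, edgeR adjusted p = 0.662). The gap between the nearest libraries of the fractions was small beside the 1.55-fold difference between the GFP-negative libraries. Scn1a (ENSMUSG00000064329, chromosome 2, 66270778 to 66440840), prominent in inhibitory interneurons of the brain and in retinal ganglion cells, stood at 30.9 and 17.8 against 33.1 and 20.8 CPM (0.14 ± 0.42, edgeR adjusted p = 0.929). Its higher library in each fraction was replicate 2.

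Scn9a (ENSMUSG00000075316, chromosome 2, 66480080 to 66634962), best known from pain-sensing neurons, was the least abundant of the 5 alpha subunit genes described here. It had 281 and 272 counts in GFP-negative and 117 and 166 counts in GFP-positive libraries, or 6.72 and 7.60 against 2.56 and 3.49 CPM. Both GFP-negative libraries were higher, but the difference did not pass (-1.24 ± 0.57, edgeR adjusted p = 0.419). An antisense gene, Gm13629, shares 180 exonic bases with Scn9a and had 7, 2, 0 and 0 counts. The counting's strand setting was not given in the sources used here, so reads of this pair cannot be told apart.

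**Figure D3:**
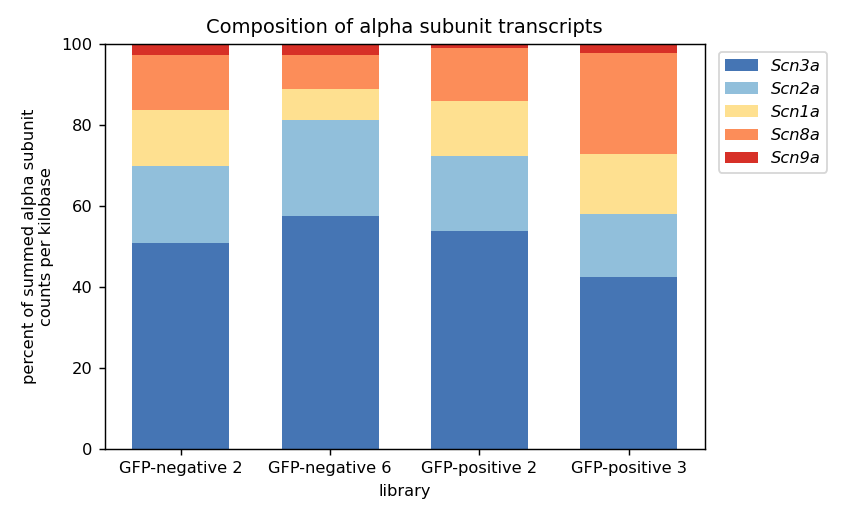
Stacked bars give each alpha subunit gene as a percent of the summed alpha subunit counts per kilobase in each library, from 0 to 100. Scn3a is the tallest block in all 4, at 50.9, 57.6, 53.8 and 42.5% from left to right, and the Scn8a block is tallest in GFP-positive replicate 3, at 24.9%.

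As shares of alpha subunit counts per kilobase, which do not depend on library scaling, Scn3a made up 54.2 ± 4.74% in GFP-negative and 48.1 ± 7.98% in GFP-positive cells. Scn2a followed with 21.3 ± 3.35% and 17.0 ± 2.22%. Scn8a made up 11.0 ± 3.77% and 19.1 ± 8.29%, and in single libraries 13.7 and 8.37% against 13.2 and 24.9%. Scn1a made up 10.8 ± 4.46% and 14.2 ± 1.00%, and Scn9a 2.74 ± 0.14% and 1.55 ± 0.90%. The fractions were separate for Scn2a and Scn9a and overlapped for the other three. With 2 libraries against 2 an exact two-sided permutation test cannot go below p = 0.333; it gave 0.333 for Scn2a and Scn9a and 0.667 for the others (0.667 for all 5 after Benjamini-Hochberg adjustment over the 5). The summed alpha subunit level was 19.9 and 20.99 CPM per kilobase in GFP-negative and 22.0 and 12.5 in GFP-positive libraries, so only GFP-positive replicate 3 stood below the rest.

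Scn3b (ENSMUSG00000049281, chromosome 9, 40269217 to 40291618), whose product associates with alpha subunits without a covalent bond, had 7067 and 14393 counts in GFP-negative and 6237 and 2134 counts in GFP-positive libraries. As CPM these were 168.9 and 402.0, against 136.4 and 44.9. The fractions did not overlap, but the spread within each was wide, 2.38-fold in GFP-negative and 3.04-fold in GFP-positive cells. The means were 285.5 ± 164.8 and 90.7 ± 64.7 CPM, and the fitted log2 fold change of -1.66 ± 0.58 did not pass (unadjusted p = 0.0194, edgeR adjusted p = 0.285). The order of the libraries by Scn3b, from GFP-negative replicate 6 down to GFP-positive replicate 3, is the reverse of their order by rod marker sum. It is the same as their order by summed pan-amacrine markers (7169, 4949, 4254 and 3088 CPM). That sum includes markers that differed with the sort: 5 of the 12 were called lower in GFP-positive cells, Gad1 among them (984.7 and 1766 against 154.5 and 69.2 CPM). Single markers did not all share the order. Slc6a9 and Snap25, the 2 with positive log2 fold changes, were higher in both GFP-positive libraries (Snap25 at 1007 and 1120 against 1713 and 1458 CPM). The part of other cells' RNA in the Scn3b difference was not tested. With rod, mitochondrial and hemoglobin genes left out, the log2 fold change of Scn3b was -1.66 as well. That fit checks scaling only, because the Scn3b counts stay the same whichever cells they came from. Leaving out 1 library at a time moved the log2 fold change of Scn3b between -2.69 and -0.90.

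The other beta subunit genes were low or absent. Scn2b (ENSMUSG00000070304, chromosome 9, 45117782 to 45130070), whose product is joined to the alpha subunit by a disulfide bond, had 4.47 and 10.4 CPM in GFP-negative libraries, against 5.95 and 3.85 CPM (-0.59 ± 0.61, edgeR adjusted p = 0.752), with overlap. Scn4b (ENSMUSG00000046480, chromosome 9, 45138395 to 45154152), the subunit linked to resurgent sodium current, lies next to Scn2b and had 0 counts in all 4 libraries. A count of 3, the upper limit that 0 allows, corresponds to 0.0631 to 0.0838 CPM by library, for counting error only.

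Ranked by CPM per kilobase, the order in GFP-negative cells was Scn3b (52.3 ± 30.2), Scn3a (11.1 ± 1.38), Nalcn (8.72 ± 4.46), Scn2a (4.36 ± 0.85), Scn8a (2.24 ± 0.69), Scn1a (2.19 ± 0.83), Scn2b (1.60 ± 0.90) and Scn9a (0.56 ± 0.049). Neighbours whose libraries overlapped were Scn3a with Nalcn, Scn8a with Scn1a, and Scn1a with Scn2b. In GFP-positive cells the order was Scn3b (16.6 ± 11.9), Scn3a (8.57 ± 4.61), Scn2a (3.01 ± 1.53), Scn8a (3.01 ± 0.15), Scn1a (2.42 ± 0.78), Nalcn (1.91 ± 0.15), Scn2b (1.05 ± 0.32) and Scn9a (0.24 ± 0.052). There Scn3b overlapped with Scn3a, and the 4 genes from Scn2a to Nalcn each overlapped with the next. Nalcn thus stood in place 3 in GFP-negative and place 6 in GFP-positive cells. Its place depends on the length used: over its longest transcript of 7122 bases, in place of the 14715 bases of all annotated exons, its means were 18.0 and 3.95 CPM per kilobase, above Scn3a (14.5) in GFP-negative cells and below both Scn2a (4.29) and Scn8a (4.15) in GFP-positive cells.

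**Figure D4:**
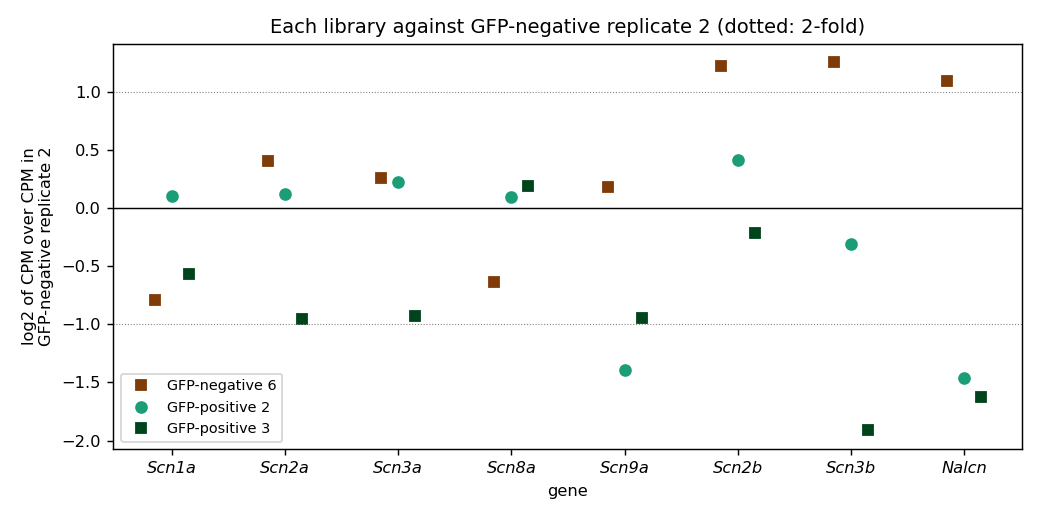
Log2 ratio of each library's CPM to that of GFP-negative replicate 2, by gene, with dotted lines at 2-fold. The GFP-positive replicate 2 circles lie near 0 for 6 genes and beyond the lower 2-fold line for Scn9a (-1.39) and Nalcn (-1.46).

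The 2 libraries numbered replicate 2 allow a comparison with near-equal rod marker sums (8984 and 10270 CPM), chosen after the values had been seen and without replication. In this pair 6 of the 8 genes lay within 2-fold: log2 ratios, GFP-positive over GFP-negative, were 0.10 for Scn1a, 0.12 for Scn2a, 0.22 for Scn3a, 0.09 for Scn8a, 0.41 for Scn2b and -0.31 for Scn3b. Scn9a (-1.39) and Nalcn (-1.46) were beyond 2-fold, as were 11.1% of the 12887 genes with a mean of at least 2 CPM. Scn3b, 3.15-fold lower in the fit, was close between these libraries, and Nalcn was lower in the GFP-positive one. This is 1 library against 1, and similar rod sums do not make the rest of the cell makeup alike. The part of cell makeup in either difference was not tested. Across the 8 genes tested, the ranges of the fractions were separate for 4, with 3 lower and 1 higher, near the 43.8% of all genes tested (21.3% lower and 22.5% higher).

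Genes that place and regulate sodium channels were examined as fixed lists, and edgeR called no member of them. Of 11 genes of the axon initial segment and node, 7 had negative and 4 positive log2 fold changes (median -0.37). Sptan1, a spectrin gene, stood at 483.2 and 512.2 against 503.9 and 421.2 CPM. Ank2, an ankyrin gene, stood at 386.8 and 610.4 against 425.1 and 245.6 CPM, and Sptbn1 at 303.7 and 418.6 against 299.2 and 254.0 CPM. An unadjusted p under 0.05 was found for 1 of the 11 (12.6% of all genes), DESeq2 called 1, Kcnq3 (4.6% of all genes), and limma-voom 0. Ank3, the ankyrin that anchors sodium channels, was added after its values were seen, at 156.3 and 185.2 against 215.1 and 196.8 CPM (0.27 ± 0.31, edgeR adjusted p = 0.779).

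Of 8 tested channel regulators, 7 had negative values (median -0.43), 2 had an unadjusted p under 0.05 (12.6% of all genes), DESeq2 called 1 (4.6% of all genes) and limma-voom 0. The ubiquitin ligase gene Nedd4 stood at 1211 and 1456 against 1398 and 942.4 CPM, the kinase gene Camk2d at 546.4 and 536.0 against 414.2 and 353.2 CPM, and Fgf13, a channel-binding FGF homologous factor, at 162.2 and 262.9 against 223.8 and 108.2 CPM. The gene called by DESeq2 was Fgf14, another such factor, at 21.9 and 61.4 against 7.17 and 2.94 CPM (-3.04 ± 0.62, edgeR adjusted p = 0.070).

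Of 6 further sodium channel genes, 4 were tested and none was called by edgeR, DESeq2 or limma-voom, with 1 unadjusted p under 0.05 (12.6% of all genes). Scn4a, the muscle channel gene, stood at 1.82 and 0.20 against 2.84 and 0.63 CPM.

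The genes nearest to Nalcn in level and pattern, by the root mean square difference of log2 CPM over the 4 libraries, were Mdga1 (0.054), Hbegf (0.129), Hpcal4 (0.175), Gabra4 (0.229) and Lsamp (0.268). Mdga1, for example, stood at 82.5 and 177.6 against 28.5 and 25.0 CPM. Nearest to Scn3b were Gria3 (0.242), Edil3 (0.253), Ptpro (0.272), Ptprg (0.287) and Brinp1 (0.294).

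**Figure D5:**
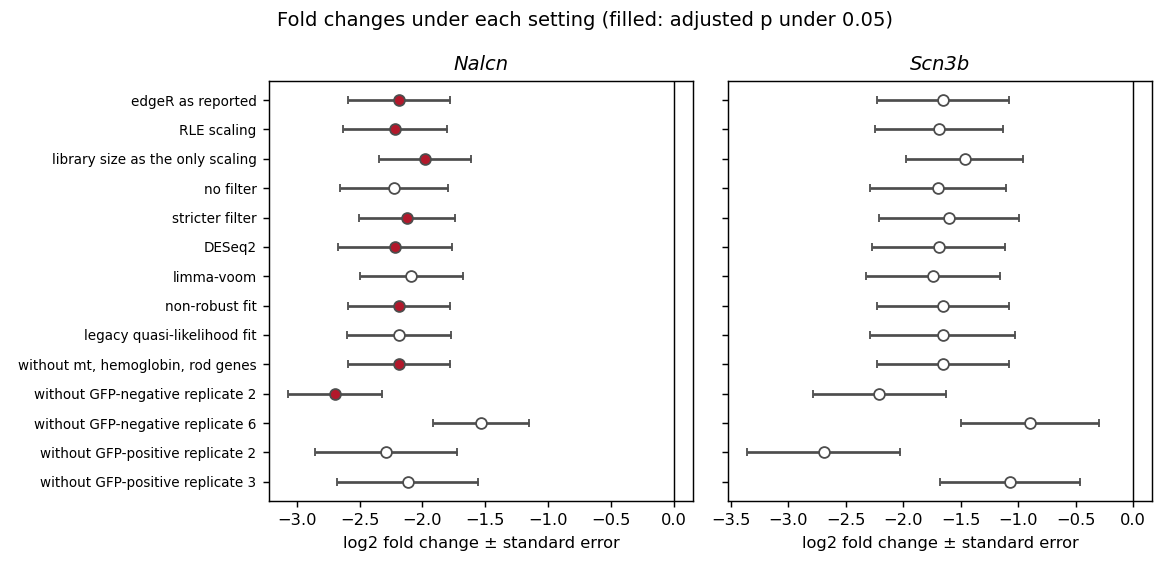
Log2 fold changes with standard errors for Nalcn (left) and Scn3b (right) under each statistical setting; filled points have an adjusted p under 0.05. All points lie below 0 for both genes, with Nalcn filled under 8 of 14 settings and Scn3b under none. The highest and the lowest point of each gene are fits with a library left out.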

How the data were processed

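RNA was sequenced from 4 libraries, 2 per fraction, prepared with Takara's SMART-Seq ultra low input kit per the labels' protocols. The authors deposited raw read counts per Ensembl gene. The submitters' processing notes name GRCm38, STAR 2.7.3a, Trimmomatic, MultiQC and limma without roles; the tool that counted reads was not given in the sources used here. A second deposited table and other replicates of the study were not analysed here. Scaling was by TMM (edgeR 4.0.16, R 4.3.3), followed by filterByExpr (minimum count 10, minimum total 15), glmQLFit (robust, legacy = FALSE) and glmQLFTest, Benjamini-Hochberg adjusted p under 0.05 over 17940 genes. The planned design named a robust fit but not the legacy argument. The default of this version (legacy = TRUE) was run first and called 48 genes and no sodium channel gene; legacy = FALSE, used in earlier work on these data, was then adopted with both outcomes known, and calls 198 genes including Nalcn. CPM values use effective library sizes. Lengths are all annotated exon bases (GENCODE mouse release 21). All members are reported; of each context list, called members and up to 3 with the highest mean CPM are named, with Unc79, Unc80 and Fam155a always. Nearest genes are the 5 closest protein-coding genes. The members, lists and rules were chosen with earlier results of these data known. Steps were tested on simulated data, with 50 genes changed at each fold. There edgeR recovered 0% of 2-fold, 38% of 4-fold and 78% of 16-fold changes, so a gene not called may still differ. Of the simulated calls, 1.15% were false with edgeR (1 of 87) and 26.0% with DESeq2 (38 of 146). This was a single simulated data set without differences in cell makeup. Its counts were drawn with the trend of spread that edgeR itself had fitted. These shares therefore do not give the part of false calls in the real data for either tool. Genes called by DESeq2 alone were not called by edgeR or limma-voom and are less certain for that reason. Alternatives were RLE or no scaling factors, DESeq2 1.42.0, voom in limma 3.58.1, no filter or a stricter one (5 CPM in 2 or more libraries), non-robust and legacy fits, gene exclusions, other lengths, and each library left out. Results on some genes and sequences are not reported here.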

Additional observations from a re-analysis of the deposited data

How the results depend on the processing

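The number of genes called was 198, and it moved beyond 1.5 times under DESeq2 (794), no filter (106), limma-voom (92) and the legacy quasi-likelihood fit (48). The legacy fit is the default of this edgeR version and was run first; the reported fit replaced it after the results of both were known, so the calls of the reported fit, Nalcn included, depend on a choice made with the outcome in view. Leaving out each library in turn gave 1 to 336 genes: 1 when GFP-negative replicate 6 was dropped, 336 for GFP-negative replicate 2, 108 for GFP-positive replicate 2 and 5 for GFP-positive replicate 3. The number of sodium channel genes called was 1, Nalcn, and became 0 with no filter, limma-voom and the legacy fit; with a library left out it was 0 to 1. The log2 fold change of Nalcn was -2.23 with no filter, -2.09 with limma-voom and -2.19 with the legacy fit, none of them called, and -2.69 to -1.54 with a library left out. The cause of these changes was not tested. For the other 7 tested genes, 87 of 91 alternative fits kept direction and side of the threshold, and none called a gene (smallest adjusted p 0.070, Scn3b with DESeq2). The 4 that turned all left out a library, and over those fits Scn1a ranged from -0.25 to 0.54, Scn2b from -1.15 to 0.13 and Scn3a from -1.08 to 0.085. Dropping GFP-negative replicate 6 turned Scn1a (-0.19) and Scn2b, dropping GFP-positive replicate 2 turned Scn1a, and dropping GFP-positive replicate 3 turned Scn3a. A fit that leaves a fraction with 1 library assumes that it varies like the other fraction. No paired analysis was possible because the fractions share a single replicate number, 2, and a block for it leaves no residual degrees of freedom. No depth alternative was run, so how far depth limits these comparisons was not tested.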
